A study of Saccharomyces cerevisiae with 14 samples.

Results

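Dhh1 is a DEAD-box RNA helicase of budding yeast, the ortholog of human DDX6. It binds the Not1 scaffold of the Ccr4-Not complex, activates removal of the mRNA cap and represses translation, and it collects with its mRNAs in cytoplasmic P-bodies. RNA immunoprecipitation followed by sequencing (RIP-seq) measures the RNA that comes down with a tagged protein. Here the RNA recovered with Dhh1 was set against total RNA, separately for 3 segments of equal length in each mRNA (5′, middle and 3′), to ask which mRNAs were gained over total RNA and in which segment. The libraries were the 3 of the Dhh1 IP and the 2 of the untagged input, 5 of the 14 libraries of the series, and the features were 4792 mRNAs of 5945 RNAs counted.

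All cells were the haploid laboratory strain BY4741, grown without added stress in rich medium (YPAD) at 30° and cross-linked with formaldehyde. In the Dhh1 IP, extract of cells that carried myc-tagged Dhh1 was incubated with an antibody to the myc tag. The input was extract of untagged (UT) cells that had been treated with DNase and not incubated with antibody. The UT IP, 3 libraries of untagged cells taken through the same antibody step, served as the background. The Dhh1 IP was made in biological triplicate and the input in duplicate. Because the input came from untagged cells, a higher level of an mRNA in the tagged cells and a higher recovery with Dhh1 cannot be told apart. In a check of the strain, 6 genes expressed only in mating type a cells had 27 to 756 counts in each of the 5 libraries. *URA3*, *LEU2* and *MET17*, which the strain lacks, had 0 to 2 counts. *HIS3*, which is partly deleted in this strain, had 108, 64 and 60 counts in the Dhh1 IP and 27 and 28 counts in the input.

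The 5 libraries held between 20376517 and 22779344 counts each, and 95.5% to 96.5% of these fell on rRNA. The median mRNA therefore had only 13 to 27 counts in a segment of one library, which limits the changes that could be seen. mRNAs took 3.83%, 3.15% and 3.31% of all counts in the Dhh1 IP libraries, 2.51% and 2.81% in the input libraries, and 2.17% to 2.18% in the UT IP libraries. The 3 Dhh1 IP libraries lay above both inputs (two-sided exact permutation p = 0.2, which 3 against 2 libraries cannot go below). This higher mRNA share sets the level of every ratio below, because counts were scaled by the total of all RNAs in a library and are given as CPM, counts per 1000000 of that total.

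Within the mRNAs, the 3′ segment held slightly more of the counts in the Dhh1 IP than in total RNA. The 3′ segment took 35.6%, 35.6% and 35.5% of mRNA counts in the 3 Dhh1 IP libraries, 33.8% and 35.2% in the 2 input libraries, and 29.0% to 30.7% in the UT IP libraries. The Dhh1 IP libraries were all above the inputs, and the mean was higher by 1.05 percentage points (two-sided exact permutation p = 0.2). Both inputs also differed from each other by more than the higher input differed from the Dhh1 IP. The share of the middle segment was 33.1% ± 0.177 (SD, n = 3) in the Dhh1 IP and 33.7% ± 0.380 (n = 2) in the input, with no overlap (exact permutation p = 0.2). The share of the 5′ segment was 31.3% ± 0.162 (n = 3) against 31.8% ± 0.621 (n = 2), and the groups overlapped (exact permutation p = 0.4).

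Most mRNAs had a higher level in the Dhh1 IP than in the input in every segment. An mRNA was tested in a segment when its counts averaged at least 5 over the 5 libraries, which left 4209 mRNAs for the 5′ segment, 4267 for the middle and 4238 for the 3′ segment, with 3948 tested in all 3. The median log2 ratio of the Dhh1 IP to the input was 0.49 for the 5′ segment, 0.47 for the middle and 0.57 for the 3′ segment, and 85.2%, 84.2% and 85.7% of the mRNAs were above 0. Against the same input, the UT IP had median log2 ratios of -0.29, -0.30 and -0.57. The Dhh1 IP and the UT IP share the input libraries, so these are values side by side and not independent. Scaling each segment so that the bulk of mRNAs did not change (TMM factors) moved the Dhh1 IP medians to 0.01, 0.03 and 0.01, so a log2 ratio has to be read against the median of its segment.

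**Figure D1:**
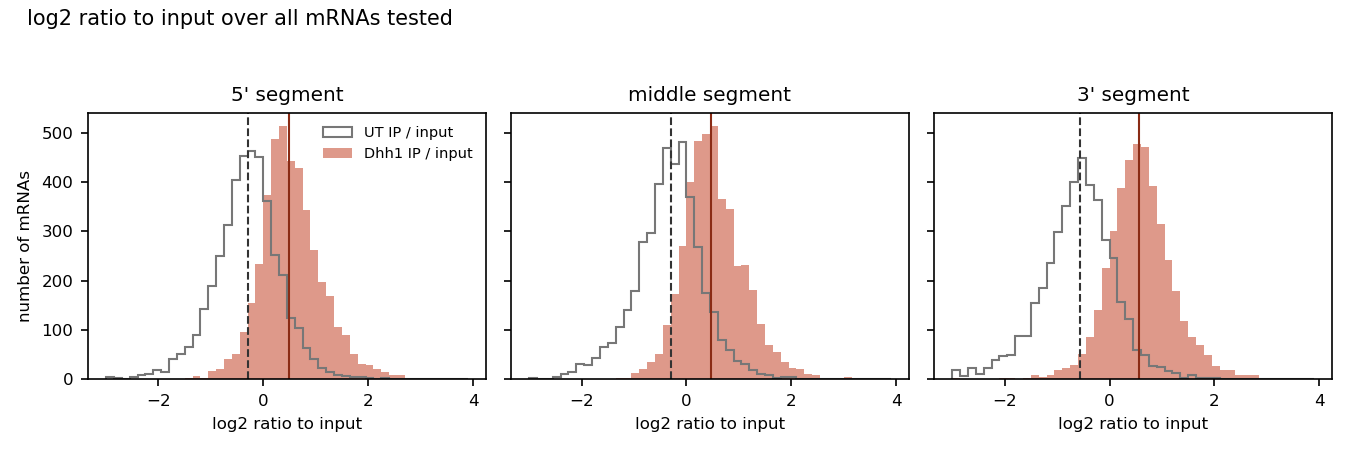
Number of mRNAs (vertical axis) by log2 ratio to the input (horizontal axis) in each segment, for the Dhh1 IP (filled) and the UT IP (outline), with solid and dashed lines at the medians and values past the axis counted in the end bins. The Dhh1 IP medians of 0.49, 0.47 and 0.57 lie to the right of 0 and the UT IP medians of -0.29, -0.30 and -0.57 to the left.

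Few single mRNAs were called gained. The test compared each log2 ratio with 0 and not with the median of its segment. With gained defined as a false discovery rate (FDR) under 1% and a log2 over 1, edgeR's quasi-likelihood test called 11 mRNAs gained for the 5′ segment (0.261% of those tested), 14 for the middle (0.328%) and 5 for the 3′ segment (0.118%). These were 27 different mRNAs, because *ECL1* and *PPQ1* were called in the 5′ and middle segments and *BAP2* in the 5′ and 3′ segments, and none was called in all 3. At an FDR under 5% the counts were 72 (1.71%), 87 (2.04%) and 76 (1.79%), over 210 mRNAs, of which 23 were called in at least 2 segments and 2, *ECL1* and *PPQ1*, in all 3. Every Dhh1 IP library was above both inputs for each of the 11, 14 and 5 mRNAs called at 1%, and for 39.4%, 38% and 45.2% of all mRNAs tested in the 3 segments, while 1.95%, 2.09% and 1.86% of all mRNAs were below both inputs in every Dhh1 IP library. Of the 11 mRNAs gained in the 5′ segment, 7 also had a log2 over 1 in the 3′ segment, where only *BAP2* was called, and all 5 gained in the 3′ segment had a log2 over 1 in the 5′ segment. The UT IP had 0 mRNAs gained over the input by the same rule in any segment, and 2 (0.0475%), 8 (0.187%) and 41 (0.967%) lower. These counts are not a like background, because the limits lay around 0. The medians were -0.29, -0.30 and -0.57 for the UT IP and 0.49, 0.47 and 0.57 for the Dhh1 IP. At an unadjusted p under 0.05, edgeR had the UT IP above the input for 55, 64 and 25 mRNAs and below it for 571, 632 and 1065.

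The calls depended on each library and on the scaling. Without Dhh1 IP replicate 1, 2 or 3 the 5′ segment had 0, 10 and 5 gained mRNAs, and without input replicate 1 or 2 it had 0 in both cases. In the middle segment the same fits gave 4, 21, 16, 5 and 1, and in the 3′ segment 0 in all 5. Of the calls made with all libraries, that of *SRL1* in the middle segment was the only one kept whichever library was left out. The log2 ratios stayed above 0 in these fits, and the lowest was 0.82, for *HHF2* in the middle segment. With TMM factors edgeR called 1 mRNA gained in the middle segment, *SRL1*, and 0 in the others.

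**Figure D2:**
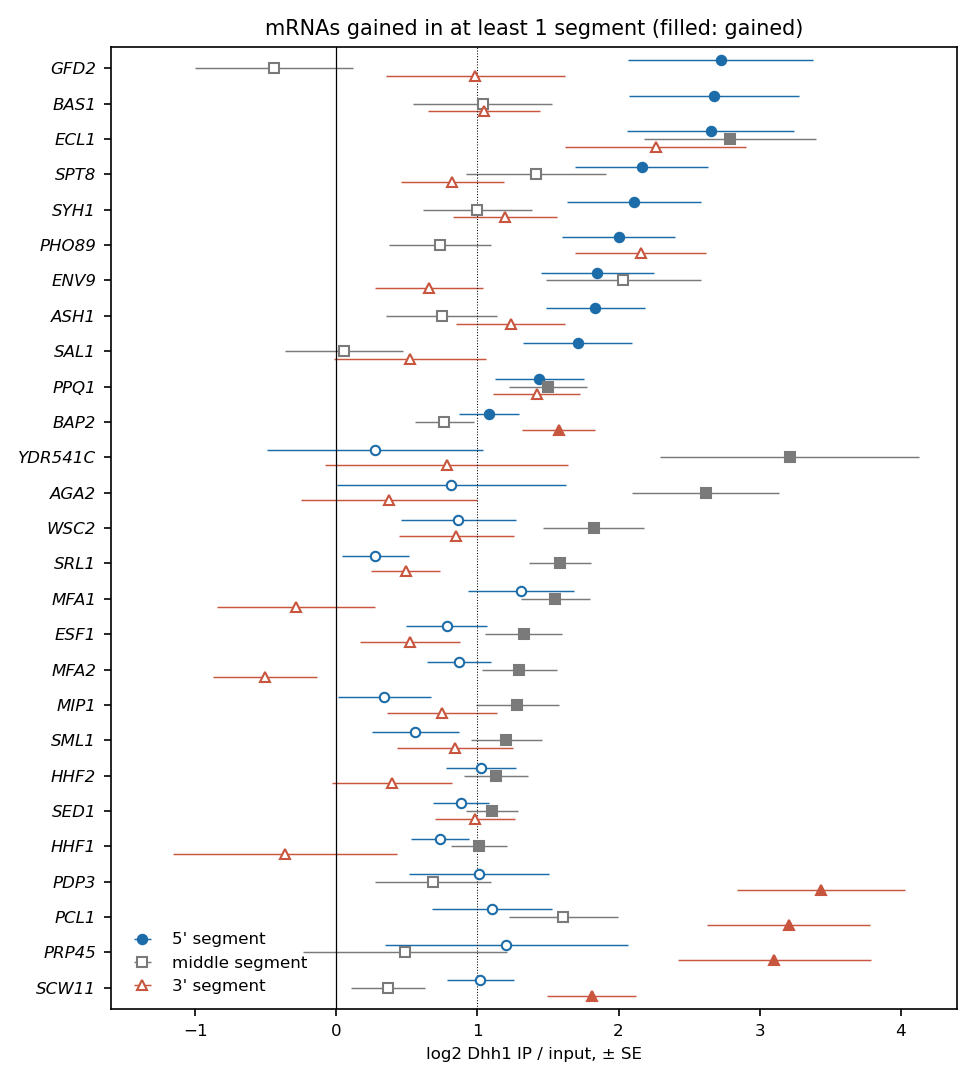
log2 ratio of the Dhh1 IP to the input (horizontal axis, ± SE) in the 5′ (circles), middle (squares) and 3′ segments (triangles) of the 27 mRNAs gained in at least 1 segment, with filled symbols where the mRNA was called gained and a dotted line at a log2 of 1. *PPQ1* and *ECL1* have similar ratios in all 3 segments. *SRL1* and *AGA2* were called only in the middle and *PDP3* and *PCL1* only in the 3′ segment, and for none of these 4 did a difference between segments pass the test.

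Of the mRNAs gained in more than 1 segment, *ECL1*, which encodes a small protein that extends chronological life span, had 43, 24 and 37 counts in the 5′ segment in the Dhh1 IP against 4 and 5 in the input. In the middle segment it had 50, 38 and 27 counts against 2 and 7, and in the 3′ segment 51, 26 and 32 against 5 and 8. In each segment the lowest Dhh1 IP library was thus well above both inputs. The log2 ratios were 2.65 ± 0.59 (SE, edgeR adjusted p = 0.0065), 2.79 ± 0.61 (adjusted p = 0.0022) and 2.26 ± 0.64 (adjusted p = 0.047), the last short of the 1% limit. The UT IP gave 1 to 10 counts in the 3 segments, with log2 ratios to the input of 0.66, 0.02 and -0.44.

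*PPQ1*, a protein phosphatase gene, had similar ratios in all 3 segments. Its counts were 108, 62 and 97 in the Dhh1 IP and 26 and 36 in the input in the 5′ segment, 127, 148 and 137 against 47 and 45 in the middle segment, and 104, 92 and 93 against 31 and 37 in the 3′ segment. All Dhh1 IP libraries were above both inputs in every segment. The log2 ratios were 1.44, 1.50 and 1.42 (edgeR adjusted p = 0.0087, 8.3e-04 and 0.025), and the difference between the 3′ and 5′ segments was -0.01 ± 0.39 (SE).

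*BAP2* encodes a plasma membrane permease for branched-chain amino acids and was the best covered of the mRNAs gained in several segments. The 3′ segment had 388, 330 and 341 counts in the Dhh1 IP and 109 and 117 in the input, a log2 ratio of 1.58 ± 0.26 (edgeR adjusted p = 0.0051). The 5′ segment had 334, 233 and 240 counts against 114 and 128, a log2 ratio of 1.08 ± 0.21 (adjusted p = 0.0044). The middle segment had 220, 172 and 174 against 100 and 112, and its log2 ratio of 0.76 ± 0.21 was under the limit on size (adjusted p = 0.030). The Dhh1 IP libraries were above the inputs in all 3 segments, and the difference between the 3′ and middle segments of 0.82 ± 0.25 did not pass the test (adjusted p = 0.24).

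**Figure D3:**
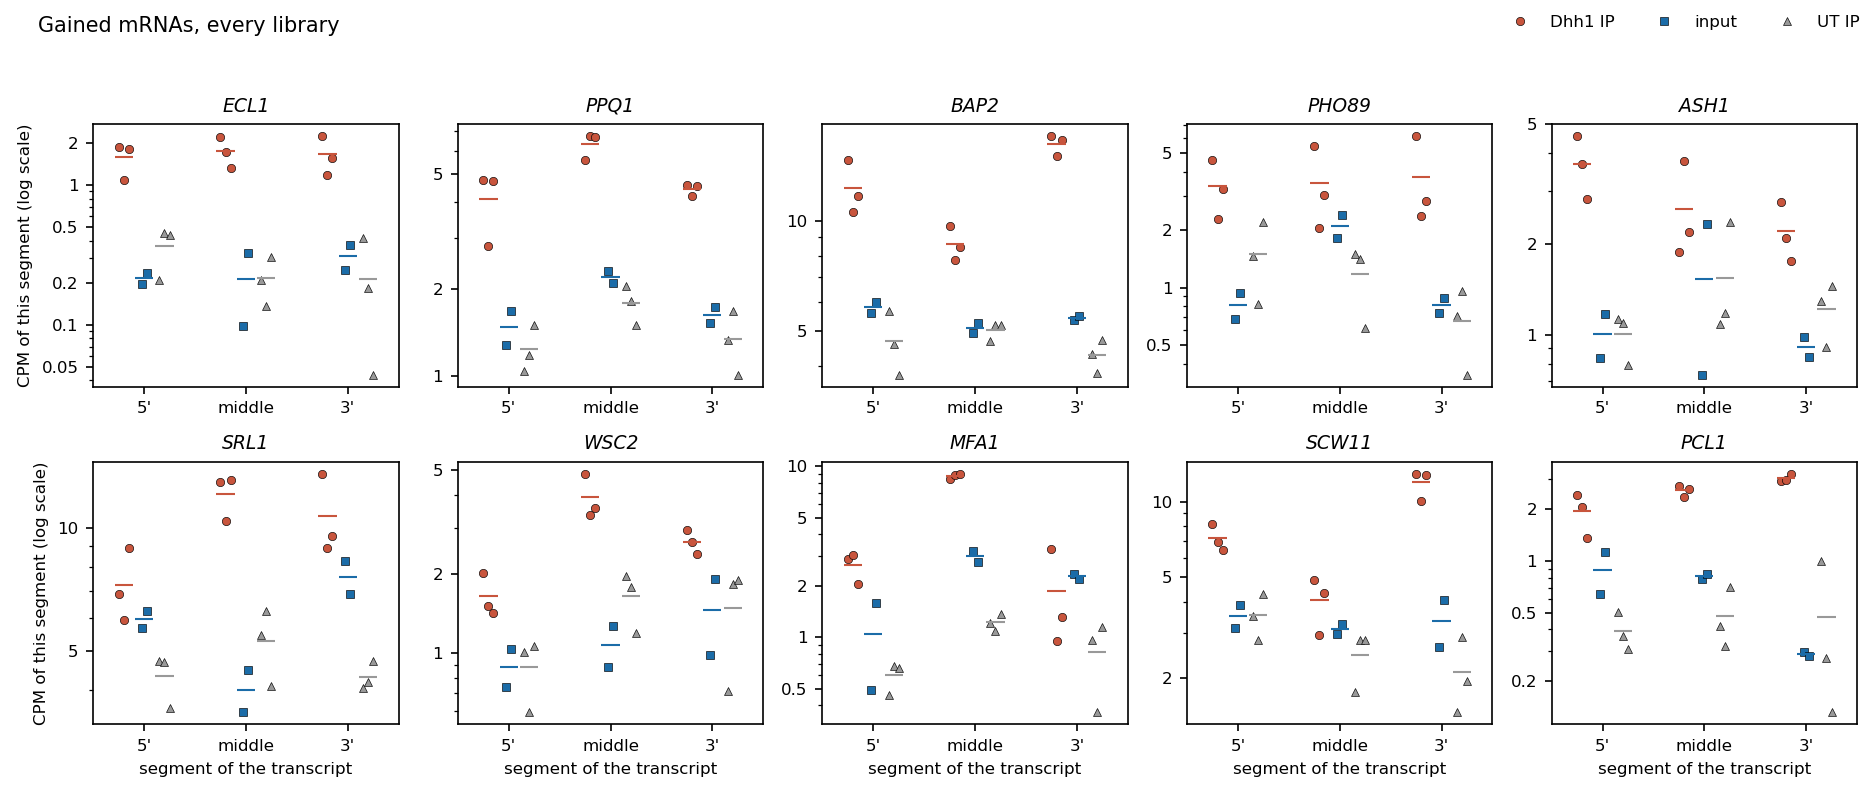
CPM of each segment (vertical axis, log scale) in every Dhh1 IP (circles), input (squares) and UT IP library (triangles) for 10 gained mRNAs, with bars at the group means. Each panel shows the 5′, middle and 3′ segments from left to right, and the Dhh1 IP points of *ECL1*, *PPQ1* and *BAP2* lie above both inputs in every segment.

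*BAS1*, a Myb-type activator of purine and histidine synthesis genes, had 55, 22 and 30 counts in the 5′ segment in the Dhh1 IP against 7 and 2 in the input, a log2 ratio of 2.68 ± 0.60 (edgeR adjusted p = 0.0065). *SPT8*, a subunit of the SAGA coactivator, had 52, 39 and 32 counts against 9 and 7, a log2 ratio of 2.16 ± 0.47 (adjusted p = 0.0065). *ASH1*, the daughter cell repressor of *HO* whose mRNA is carried to the bud, had 104, 81 and 58 counts against 17 and 25, a log2 ratio of 1.84 ± 0.35 (adjusted p = 0.0027). The groups did not overlap for any of the 3 in the 5′ segment, which the rule for naming required of *BAS1* and *SPT8*. These 2 did not overlap in the other segments either, where 38% (middle) and 45.2% (3′) of all mRNAs lay above both inputs. The ratios of *BAS1*, *SPT8* and *ASH1* in the 3′ segment were 1.04, 0.82 and 1.24, with edgeR adjusted p-values of 0.12, 0.16 and 0.078.

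*PHO89*, a sodium and phosphate cotransporter of the plasma membrane, had 105, 50 and 67 counts against 14 and 20 in the 5′ segment, a log2 ratio of 2.00 ± 0.40 (edgeR adjusted p = 0.0043). Its 3′ segment had 140, 52 and 58 counts against 15 and 19, with a log2 ratio of 2.16 ± 0.46 (adjusted p = 0.025). Its middle segment had 125, 45 and 62 counts against 37 and 51, so that 1 Dhh1 IP library fell below an input, and the log2 ratio was 0.73 ± 0.36 (adjusted p = 0.24). *SYH1*, a GYF domain protein that acts in translation quality control, had 70, 35 and 40 counts against 6 and 14, a log2 ratio of 2.11 ± 0.48 (adjusted p = 0.0087). *ENV9*, which acts in lipid droplet formation, had 57, 38 and 48 counts against 12 and 12, a log2 ratio of 1.85 ± 0.40 (adjusted p = 0.0065). The Dhh1 IP libraries lay above the inputs in both, which the rule for naming required in the 5′ segment. *SAL1*, a mitochondrial nucleotide carrier gene, was also called in the 5′ segment (55, 47 and 48 counts against 12 and 16). It overlapped the input in the other 2 segments, with log2 ratios of 0.05 and 0.52. In the 5′ segment of *SAL1* the UT IP was also above the input, with 44, 20 and 33 counts and a log2 ratio of 1.02. In this segment the UT IP also had log2 ratios to the input of 0.85 for *PHO89*, 0.74 for *BAS1* and 0.64 for *ENV9*. The ratios were 0.17 for *SYH1*, 0.18 for *SPT8* and 0.002 for *ASH1*. Over the 11 mRNAs gained in the 5′ segment they ran from -0.31 to 1.02, against a median of -0.29 over all mRNAs.

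The middle segment had the smallest adjusted p-value of all calls, that of *SRL1*. The list of plasma membrane and cell wall proteins had 2 of 19 tested mRNAs gained there, *SED1* and *AGA2*, against 0.328% of all mRNAs, but its median log2 of 0.34 lay below the 0.47 of all mRNAs. *SRL1*, a mannoprotein of the cell wall, had 295, 228 and 268 counts in the Dhh1 IP and 72 and 96 in the input, a log2 ratio of 1.58 ± 0.22 (edgeR adjusted p = 8.2e-06). Its 5′ segment had 157, 131 and 183 counts against 116 and 134, an overlap of the groups, and its 3′ segment 309, 196 and 196 against 169 and 147. *SRL1* is the neighbor of *ENV9* on the opposite strand, and whether counting per segment used strand is not given in the sources used here. *WSC2*, a sensor of the cell wall integrity pathway upstream of the GTPase Rho1, had 110, 74 and 73 counts against 18 and 27, a log2 ratio of 1.82 ± 0.36 (adjusted p = 0.0013). *SED1*, a major glycoprotein of the cell wall, had 849, 665 and 542 counts against 317 and 289, a log2 ratio of 1.11 ± 0.18 (adjusted p = 1.8e-04), and its 5′ and 3′ segments had log2 ratios of 0.88 and 0.98. The groups of *WSC2* and *SED1* did not overlap in any segment, which the rule for naming required of *WSC2* in the middle segment. Of all mRNAs, 39.4%, 38% and 45.2% lay above both inputs in the 5′, middle and 3′ segments.

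Of the 6 genes expressed only in mating type a cells, 3 were gained in the middle segment, against 0.328% of all mRNAs. In the 5′ and 3′ segments 0 were, against 0.261% and 0.118%. At an FDR of 5%, *MFA1* and *BAR1* were gained in the 5′ segment (log2 1.31 and 1.19, edgeR adjusted p = 0.041 and 0.032), against 1.71% of all mRNAs. Every Dhh1 IP library was above both inputs for 5 of the 6 in the 5′ and in the middle segment, against 39.4% and 38%. *MFA1*, a precursor of the a-factor pheromone, had 193, 195 and 186 counts in the Dhh1 IP and 65 and 59 in the input, a log2 ratio of 1.55 ± 0.25 (edgeR adjusted p = 8.4e-05). *MFA2*, the second a-factor gene, had 120, 103 and 100 counts against 35 and 48, a log2 ratio of 1.30 ± 0.27 (adjusted p = 0.0022). *AGA2*, the adhesive subunit of a-agglutinin, had 37, 54 and 39 counts against 5 and 7, a log2 ratio of 2.62 ± 0.52 (adjusted p = 9.2e-04). None of the 3 stood out in the 3′ segment, where the Dhh1 IP libraries overlapped the inputs and the log2 ratios were -0.28, -0.51 and 0.37. In the middle segment the UT IP had log2 ratios to the input of -1.25 for *MFA1* and 1.27 for *AGA2*. The other members, the pheromone receptor gene *STE2*, the a-factor exporter gene *STE6* and the protease gene *BAR1*, had log2 ratios of 0.79, 0.18 and 0.46 in the middle segment and did not pass (edgeR adjusted p = 0.070, 0.68 and 0.33).

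Both genes for histone H4 were called in the middle segment, but they are near-identical copies whose reads may not be split with certainty. *HHF1* had 522, 375 and 427 counts against 203 and 215 (log2 1.01 ± 0.20, edgeR adjusted p = 0.0017) and *HHF2* 250, 223 and 209 against 120 and 77 (log2 1.13 ± 0.23, adjusted p = 0.0022). In the 3′ segment of *HHF1* the 2 inputs themselves had 46 and 213 counts. *SML1*, the protein inhibitor of ribonucleotide reductase, *MIP1*, the mitochondrial DNA polymerase, and *ESF1*, a nucleolar pre-rRNA processing factor, had log2 ratios of 1.20, 1.28 and 1.33 in the middle segment (adjusted p = 0.0033, 0.0094 and 0.0025). None of these 3 was called in another segment. The 14 mRNAs gained in the middle segment had coding regions of 111 to 3765 nt with a median of 634.5 nt, against a median of 1341 nt over all mRNAs tested there, and 57.1% of them were under 1000 nt against 32.6%. For the 87 past 5% the median was 1101 nt and 44.8% were under 1000 nt. The 11 of the 5′ segment had a median of 1725 nt and its 72 past 5% one of 1540.5 nt, against 1356 nt over all mRNAs tested there. The 5 of the 3′ segment had a median of 1140 nt, below the 1350 nt of all mRNAs tested there, but its 76 past 5% had one of 1480.5 nt.

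In the 3′ segment the highest ratios belonged to mRNAs with few input counts. *PDP3*, which encodes a PWWP domain subunit of the NuA3 histone acetyltransferase, had 50, 47 and 34 counts in the Dhh1 IP against 4 and 2 in the input, a log2 ratio of 3.43 ± 0.60 (edgeR adjusted p = 0.0051). Its UT IP had 13, 7 and 5 counts there, a log2 ratio to the input of 1.11. *PCL1*, a G1 cyclin of the kinase Pho85, had 66, 65 and 66 counts against 6 and 6, a log2 ratio of 3.21 ± 0.58 (adjusted p = 0.0061). *PRP45*, a pre-mRNA splicing factor, had 23, 26 and 14 counts against 1 and 2, and was below the mean of 20 counts set for naming. *SCW11*, a glucanase-like cell wall protein of daughter cells, had more reads, with 294, 221 and 262 counts against 54 and 87, a log2 ratio of 1.81 ± 0.32 (adjusted p = 0.0061). In this segment the UT IP had log2 ratios to the input of 0.65 for *PCL1*, 0.47 for *PRP45* and -0.67 for *SCW11*. Every Dhh1 IP library was above both inputs there for all 4, which the rule for naming required of *PDP3*, *PCL1* and *SCW11*. The same order held for 45.2% of all mRNAs tested in this segment. In the 5′ and middle segments the log2 ratios were 1.01 and 0.68 for *PDP3*, 1.10 and 1.61 for *PCL1*, and 1.02 and 0.37 for *SCW11*.

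*SCW11* was also the only mRNA whose ratio was higher in the 3′ segment than in another segment by the test of the difference itself. Its middle segment had 111, 65 and 89 counts against 61 and 70, an overlap, and the ratio of the 3′ segment exceeded that of the middle segment by a log2 of 1.47 ± 0.32 (edgeR, interaction of segment and group, adjusted p = 0.018, 1 of 3948 mRNAs, 0.0253%). This call was lost whichever of the 5 libraries was left out, with adjusted p-values from 0.059 to 0.28 and differences from 1.25 to 1.73. The differences of *PDP3* (2.79 ± 0.76 between the 3′ and middle segments, adjusted p = 0.053) and *PCL1* (2.10 ± 0.64 between the 3′ and 5′ segments, adjusted p = 0.23) did not pass.

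The other differences between segments ran the opposite way, with a lower ratio in the 3′ segment. At an FDR under 5%, 7 of 3948 mRNAs (0.177%) were lower in the 3′ segment than in the 5′ segment and 6 (0.152%) lower than in the middle segment, whereas 0 were higher than in the 5′ segment. Between the middle and 5′ segments edgeR called 0 in either direction. At an unadjusted p under 0.05 there were 187 higher and 135 lower for the 3′ against the 5′ segment, 211 and 127 for the 3′ against the middle segment, and 88 and 125 for the middle against the 5′ segment. The median difference over all 3948 was 0.09 for the 3′ minus the 5′ segment and 0.10 for the 3′ minus the middle segment, but 0.01 and -0.01 with TMM factors set per segment.

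*CCW12*, an abundant mannoprotein of the cell wall, had the most reads of these mRNAs. Its counts were 3099, 2661 and 2770 in the Dhh1 IP against 1652 and 1785 in the input in the 5′ segment and 2872, 2395 and 2318 against 1331 and 1553 in the middle segment. In the 3′ segment they were 639, 602 and 443 against 732 and 890. The Dhh1 IP libraries thus lay above both inputs in the 5′ and middle segments and below both in the 3′ segment. The log2 ratios were 0.67 ± 0.10, 0.75 ± 0.12 and -0.59 ± 0.29 (edgeR adjusted p = 2.4e-04, 1.5e-04 and 0.21), and the 3′ segment differed from the 5′ segment by -1.26 ± 0.22 (adjusted p = 0.0021) and from the middle segment by -1.34 ± 0.22 (adjusted p = 0.0012). The UT IP had log2 ratios of -0.03, 0.03 and -0.80 to the same inputs. The difference between the 3′ and 5′ segments was -1.12 (adjusted p = 0.058) without Dhh1 IP replicate 3 and -1.18 (adjusted p = 0.29) without input replicate 2, and that between the 3′ and middle segments -1.31 (adjusted p = 0.12) without input replicate 2.

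Other short mRNAs also had a lower ratio in the 3′ segment. *MFA2*, with a coding region of 117 nt, had 83, 79 and 88 counts in the 3′ segment against 78 and 152 in the input, and this segment differed from the middle segment by -1.77 ± 0.37 (edgeR adjusted p = 0.012). *RPL41A* and *RPL41B*, near-identical genes for a 60S ribosomal protein with coding regions of 78 nt, had 346, 249 and 309 counts against 550 and 688, and 31, 22 and 31 counts against 70 and 101, in the 3′ segment. Their 3′ segments differed from the 5′ segments by -1.40 ± 0.29 and -1.79 ± 0.36 (adjusted p = 0.013 and 0.0065). In the 3′ segment the UT IP was lower too, with log2 ratios to the input of -2.35 for *MFA2*, -2.18 for *RPL41A* and -2.25 for *RPL41B*. Without input replicate 2 the differences were -1.50, -1.33 and -1.52 and none passed (adjusted p = 0.53, 0.44 and 0.49). The call of *MFA2* was also lost without Dhh1 IP replicate 1 or 2 (-1.68 and -1.77), that of *RPL41A* without Dhh1 IP replicate 2 or 3 or input replicate 1 (-1.28, -1.37 and -1.46), and that of *RPL41B* without Dhh1 IP replicate 1 (-1.58). The 3′ and middle segments of *RPL41B* differed by -1.71, which was lost without Dhh1 IP replicate 2 (-1.62, adjusted p = 0.056) and input replicate 2 (-1.44, adjusted p = 0.50).

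The remaining differences moved with a single input library. *BUD21*, a component of the small subunit processome, had 25, 20 and 21 counts in the Dhh1 IP in the 3′ segment and 14 and 782 in the input. Its 5′ segment had 95, 54 and 49 counts against 16 and 26, all Dhh1 IP libraries above both inputs. Without input replicate 2 its difference of -4.71 between the 3′ and 5′ segments became -1.32 (edgeR adjusted p = 0.84). *LCB5*, a sphingoid base kinase gene, had 23, 14 and 10 counts against 13 and 245, and *RPL8B*, a gene for a 60S ribosomal protein with a near-identical copy, had 284, 335 and 268 against 334 and 722. Both lost the call without that library (-1.84 and -0.91, adjusted p = 0.74 and 0.63), and both also without Dhh1 IP replicate 1 or 3, as did *LCB5* without Dhh1 IP replicate 2. *SNT1*, a subunit of the Set3 histone deacetylase complex, was high in the other input, with 130, 125 and 152 counts against 531 and 174, and its difference of -2.15 became -1.51 (adjusted p = 0.33) without input replicate 1, and -1.90 (adjusted p = 0.078) without Dhh1 IP replicate 1. The differences between the 3′ and middle segments were lost as well. That of *BUD21* went from -4.32 to -0.92 (adjusted p = 0.88) without input replicate 2 and missed the limit without Dhh1 IP replicate 1 or 2 (adjusted p = 0.056 in both). That of *RPL8B* went from -1.20 to -0.79 (adjusted p = 0.59) without input replicate 2 and was lost without any one Dhh1 IP library (adjusted p = 0.055 to 0.13). That of *SNT1* went from -1.93 to -1.30 (adjusted p = 0.41) without input replicate 1 and was lost without Dhh1 IP replicate 1 or 2 (adjusted p = 0.071 and 0.089).

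**Figure D4:**
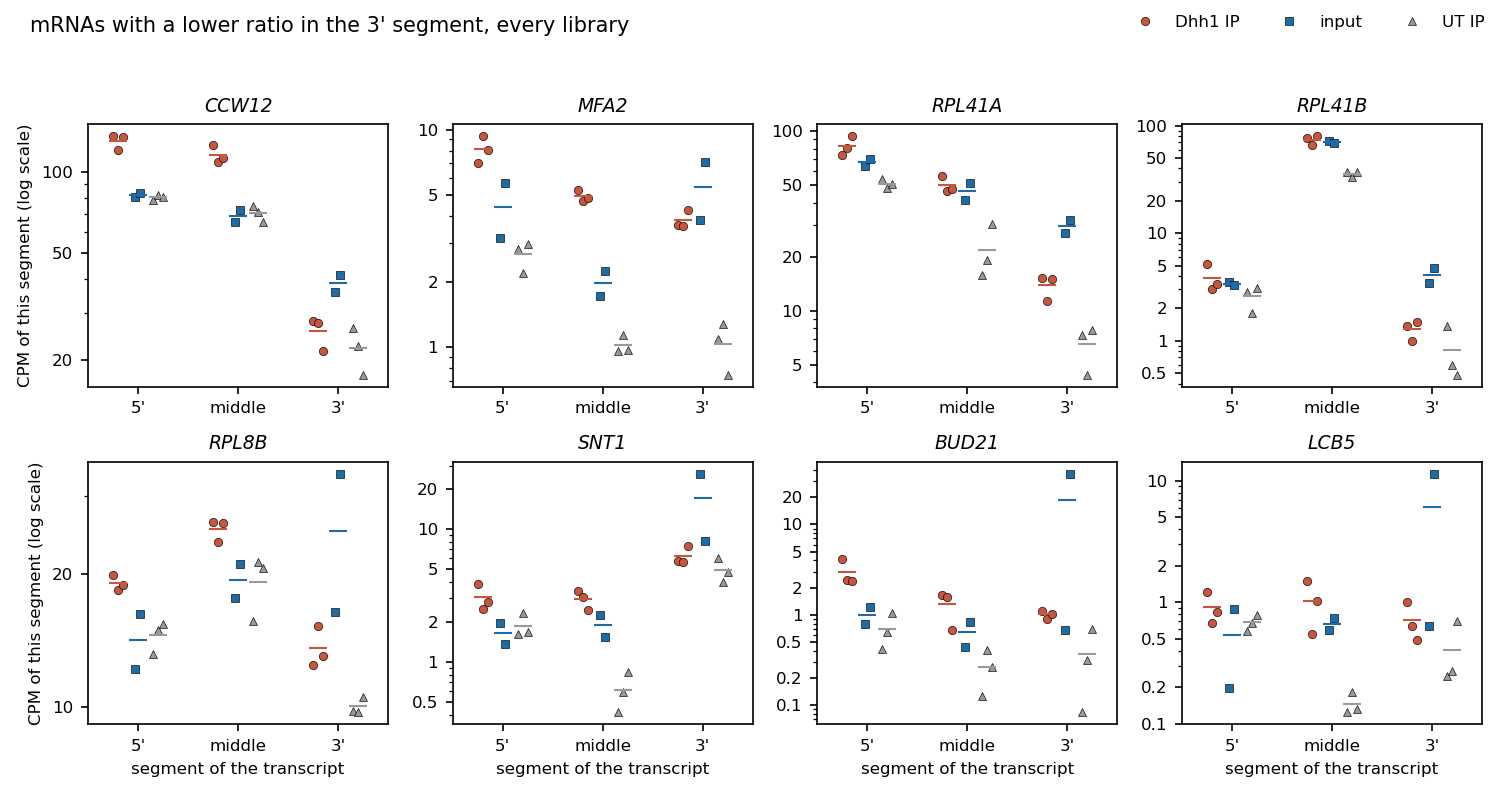
CPM of each segment (vertical axis, log scale) in every Dhh1 IP (circles), input (squares) and UT IP library (triangles) for the 8 mRNAs with a lower ratio in the 3′ segment than in another segment, with bars at the group means. In *CCW12*, *RPL41A*, *RPL41B*, *RPL8B* and *SNT1* both inputs lie above the Dhh1 IP in the 3′ segment. In *BUD21* and *LCB5* 1 input library of 782 and 245 counts sets the mean.

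With counts scaled by the total of all RNAs, lower levels in the Dhh1 IP were rarer than gains. With lower defined as an FDR under 1% and a log2 under -1, edgeR called 1 mRNA for the 5′ segment (0.0238%), 0 for the middle and 1 for the 3′ segment (0.0236%), and at an FDR under 5% it called 4 in the 3′ segment (0.0944%). At an unadjusted p under 0.05, 8 mRNAs were lower in the middle segment, and DESeq2 with the same library totals called 0 there. The 2 lower mRNAs were *RCY1*, an F-box protein of membrane recycling, with 10, 14 and 22 counts against 12 and 219 in the 5′ segment, and *BUD21* in the 3′ segment. In both the Dhh1 IP overlapped the inputs. Without input replicate 2 the log2 ratio of *RCY1* went from -2.86 to 0.25 and that of *BUD21* in the 3′ segment from -4.15 to 0.53. The order of gains and losses depended on the scaling. With TMM factors edgeR called 3, 0 and 3 mRNAs lower and 0, 1 and 0 gained in the 5′, middle and 3′ segments. DESeq2 with its own size factors called 3, 1 and 15 lower and 1, 2 and 5 gained.

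The mRNAs of the 3 proteins tagged in the series, Dhh1, Ccr4 and Puf5, were not called gained. *DHH1* itself had 124, 107 and 118 counts in the 5′ segment against 117 and 161 in the input, 87, 53 and 54 against 86 and 75 in the middle segment, and 85, 50 and 81 against 60 and 87 in the 3′ segment. The groups overlapped in each segment, and the log2 ratios of -0.31 ± 0.26, -0.38 ± 0.26 and -0.08 ± 0.29 lay below the median of all mRNAs (edgeR adjusted p = 0.48, 0.41 and 0.88). The Dhh1 IP cells carried myc-tagged Dhh1 and the input cells did not, so the *DHH1* mRNAs compared were not identical. *CCR4*, the gene of the major deadenylase, had log2 ratios of 0.37, 0.40 and 0.61, close to the medians, and those in the 5′ and middle segments fell to -0.12 and -0.06 with TMM factors. *MPT5*, which encodes Puf5, passed the count filter only in the 3′ segment, with 8, 10 and 5 counts against 11 and 12 (log2 -0.59 ± 0.66, adjusted p = 0.55). Its 5′ segment had 9, 4 and 4 counts against 0 and 0, too few to be tested. *HO*, the endonuclease gene of mating type switching whose mRNA is a known target of Puf5, had 61, 40 and 41 counts against 28 and 23, 46, 42 and 49 against 34 and 24, and 67, 42 and 36 against 24 and 34. Its Dhh1 IP libraries were above both inputs in each segment, like 39.4%, 38% and 45.2% of all mRNAs, and its log2 ratios of 0.80, 0.58 and 0.65 did not pass (adjusted p = 0.16, 0.29 and 0.30).

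Few members of functional groups were called gained at an FDR of 1%, as were few of all mRNAs (0.118% to 0.328%). The groups differed in their calls at 5% and in their medians. Of 24 lists written from general knowledge, the mitochondrial ribosomal proteins had a median log2 of 0.85 (5′, 65 tested), 0.85 (middle, 68 tested) and 0.64 (3′ segment, 69 tested). All mRNAs had medians of 0.49, 0.47 and 0.57. At an FDR of 1% the list had 0 gained, against 0.261%, 0.328% and 0.118% of all mRNAs. At such shares 0 calls are not a trait of a list of this size. At 5% it had 1, 1 and 2, against 1.71%, 2.04% and 1.79%. Every Dhh1 IP library was above both inputs for 40%, 44.1% and 26.1% of this list. For all mRNAs the shares were 39.4%, 38% and 45.2%. Cytosolic ribosomal proteins had medians of 0.34, 0.42 and 0.27 (89, 107 and 93 tested), with 0 gained at 1% against the same 1% shares of all mRNAs. Their summed level in the 5′ segment was 1052, 887 and 954 CPM in the Dhh1 IP and 693 and 789 CPM in the input, all above both inputs although the median ratio lay below that of all mRNAs. In the 3′ segment the sums were 855 to 1018 CPM against 723 and 1009 CPM, an overlap. Of the 24 lists, glycolytic and fermentation enzymes had the lowest medians in the 5′ and middle segments, 0.07 and 0.06 (17 tested in each), and 0.44 in the 3′ segment, and heat shock chaperones had 0.13, 0.09 and 0.26 (26 tested). Histone acetylation and methylation complexes had 6 of 61, 1 of 62 and 1 of 59 mRNAs gained at 5%, against 1.71%, 2.04% and 1.79% of all mRNAs. Of these, *SPT8* in the 5′ segment was past 1%. Cytosolic ribosomal proteins had 0, 0 and 1 at 5%, beside the same 5% shares of all mRNAs. The lists are described by these values, and none was tested as a set. They were not matched for input level. Over 5 equal groups by input level the 5′ median fell from 0.81 to 0.28, with the input in both grouping and ratio. In the 3′ segment the member with the highest ratio had a log2 of 0.97 to 3.21 over the 24 lists and passed an FDR of 1% in 1 list, whereas the member with the lowest ratio had -2.28 to 0.10 and passed in 0. For cytosolic ribosomal proteins these were *RPS10B* (2.18, edgeR adjusted p = 0.12) and *RPL41B* (-1.63, adjusted p = 0.047), and for mitochondrial ribosomal proteins *MRP49* (2.25, adjusted p = 0.12) and *RSM10*. *RSM10* had 7, 12 and 5 counts in the Dhh1 IP and 5 and 78 in the input, and its log2 ratio went from -2.28 to 0.50 without input replicate 2.

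Over cyclins, Cdk inhibitors and the anaphase-promoting complex the medians were 0.78, 0.67 and 0.84 (38, 38 and 37 tested), above those of all mRNAs, with members from -0.64 to 3.21 in the 3′ segment. At 1%, 1 mRNA was gained (*PCL1*, 3′ segment, where 0.118% of all mRNAs were), and at 5% there were 4, 2 and 4, against 1.71%, 2.04% and 1.79% of all mRNAs. The summed level of this list was 53.5 to 61.2 CPM in the 3′ segment of the Dhh1 IP and 28.7 and 31.9 CPM in the input, with no overlap. The examples that follow were chosen after their values were seen. *CLN1*, a G1 cyclin, had 65, 61 and 65 counts against 23 and 13 in the 5′ segment and 88, 99 and 63 against 20 and 25 in the 3′ segment (log2 1.71 and 1.78, edgeR adjusted p = 0.012 and 0.024). *CLB1*, a mitotic cyclin, had 69, 49 and 48 counts against 22 and 15 and 88, 84 and 67 against 23 and 32 in the same segments (log2 1.47 and 1.44, adjusted p = 0.018 and 0.027). *SIC1*, the inhibitor of S-phase Cdk complexes, had 45, 41 and 52 counts against 9 and 15 in the middle segment (log2 1.81, adjusted p = 0.011). Kinetochore and DASH complex mRNAs had medians of 0.61, 0.87 and 0.70.

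The list of Puf and other RNA-binding proteins linked to decay had medians of 0.62, 0.35 and 0.62 (17, 17 and 18 tested), the middle one below that of all mRNAs, and 2, 2 and 0 mRNAs past 5%. Of its members *PUF3*, which encodes a Puf protein that binds mRNAs of mitochondrial proteins, was past 5% in 2 segments. It had 46, 41 and 44 counts against 17 and 15 in the 5′ segment and 60, 64 and 51 against 22 and 15 in the middle segment (log2 1.34 and 1.54, edgeR adjusted p = 0.032 and 0.011). *VTS1*, a translational repressor, had 30, 32 and 30 counts against 5 and 7 in the 5′ segment (log2 2.13, adjusted p = 0.012). *NOT3*, a Ccr4-Not subunit, had 67, 45 and 53 counts against 17 and 17 in the middle segment (log2 1.58, adjusted p = 0.012). At 1%, where 0.118% to 0.328% of all mRNAs were gained, these lists had 0, and the Ccr4-Not and Pan2/3 list had medians of 0.59, 0.40 and 0.61, near those of all mRNAs. Decapping and P-body factors had 0 of 21, 21 and 20 mRNAs past 5%, and at the shares of all mRNAs (1.71% to 2.04%) lists of this size would hold less than 1. Their highest and lowest members in the 3′ segment were *EDC1*, a decapping enhancer, with 22, 14 and 24 counts against 1 and 5, and *LSM4*, of the Lsm1-7 decapping complex, with 15, 4 and 14 against 23 and 21. The first was above and the second below both inputs, and neither passed (adjusted p = 0.074 and 0.25).

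The order of the segments changed with the length of the mRNA. In the shortest of 5 equal groups by coding length (78 to 825 nt, 801 mRNAs) the median log2 was 0.57 for the 5′, 0.65 for the middle and 0.45 for the 3′ segment. In the longest group (2310 to 14733 nt, 789 mRNAs) it was 0.39, 0.35 and 0.55, and in each of the 4 longer groups the 3′ segment had the highest median. The fitted difference between the 3′ and 5′ segments had a median of -0.11 in the shortest group and 0.16 in the longest. Over single Dhh1 IP libraries the middle segment of the shortest group lay between 0.59 and 0.83 and the 3′ segment between 0.45 and 0.63. In the UT IP the 3′ segment of the shortest group was also the lowest, at -0.87 against -0.51 to -0.56 in the longer groups. These are descriptions across mRNAs, which share their libraries and are not replicates.

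**Figure D5:**
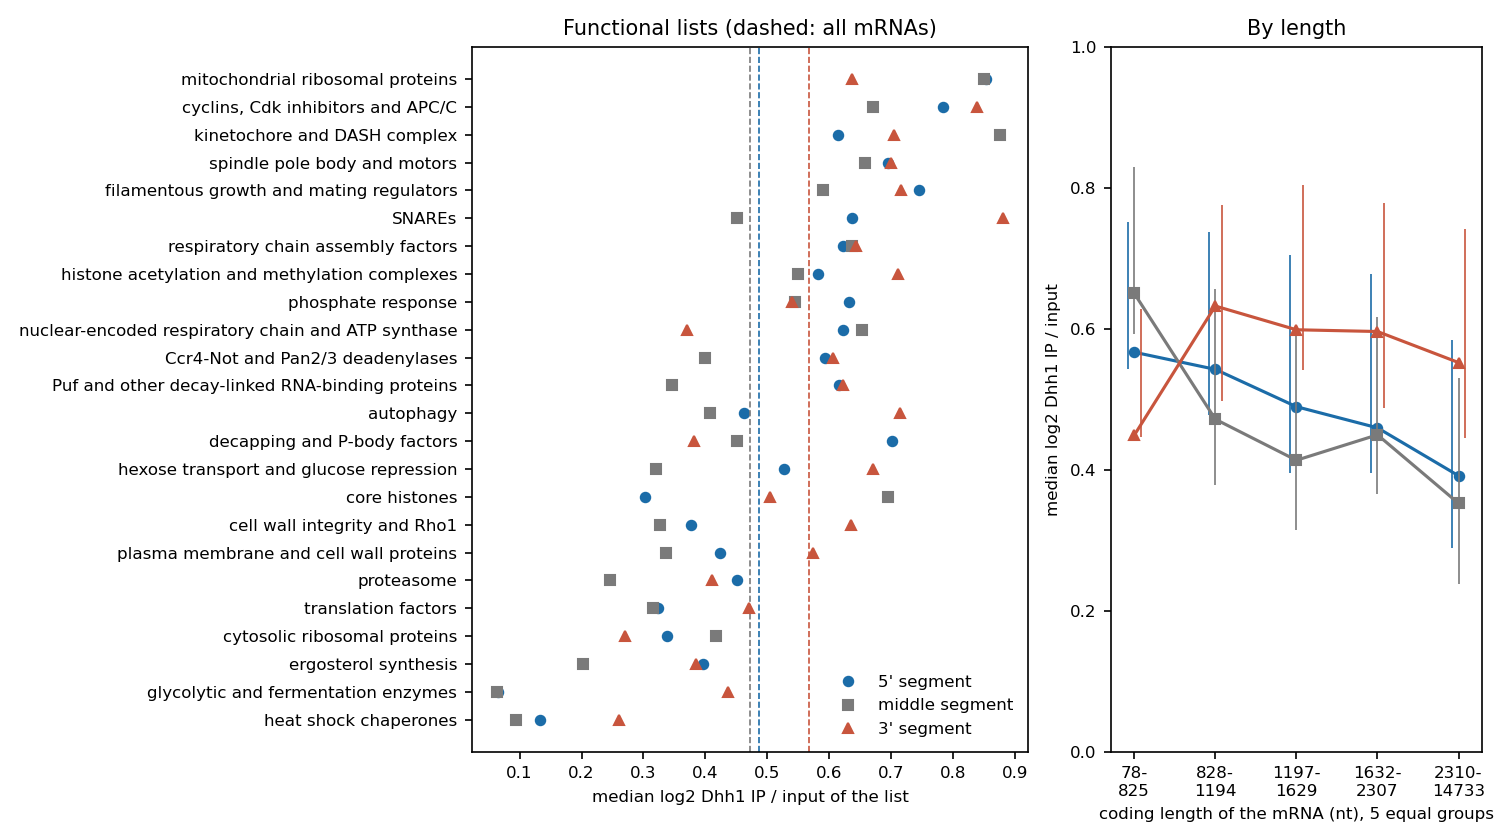
Left, median log2 ratio of the Dhh1 IP to the input (horizontal axis) of each of 24 functional lists in the 5′ (circles), middle (squares) and 3′ segments (triangles), with dashed lines at the medians of all mRNAs (0.49, 0.47 and 0.57). Right, the median by coding length in 5 equal groups, with vertical lines from the lowest to the highest single Dhh1 IP library, in which the 3′ segment is the lowest in the shortest group (0.45) and the highest in the other 4.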

How the data were processed

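The authors mapped trimmed SOLiD reads with SHRiMP to an earlier release of the yeast genome, tabulated reads between published transcript ends and split those of each RNA into 3 segments of equal length. The deposited values used here are raw counts per segment and per RNA, not normalized, and the segments summed to the count of each RNA. RNA type was taken from the authors' annotation. Further deposited columns hold log2 values of the authors' own comparisons and were not used, and 6 other per-sample columns were not used either.

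Counts were tested with edgeR 4.0.16 (R 4.3.3), quasi-likelihood test, Benjamini-Hochberg adjustment over all mRNAs tested in a segment. All 14 libraries entered the fit and shared 1 estimate of the spread. The library size was the total of all counts, rRNA included, with a prior count of 1 and a mean of at least 5 counts over the 5 libraries of the contrast. Differences between segments were tested as a group-by-segment interaction, each library being a block (3948 mRNAs, FDR under 5%). Standard errors (SE) were the log2 ratio fitted without the prior count, divided by the square root of its F statistic. The same steps were checked on simulated counts. Single-library log2 ratios used 0.5 added counts. The coding length given here is the RefSeq gene length, from names matched for 4791 mRNAs, without coordinates. It was a multiple of 3 for 97.1% of them, so for at least the rest it was not the length of the coding sequence. The p-values measure the spread between these libraries.

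Genes were named by rule. Per segment these were the 6 gained mRNAs with the highest log2 and the 4 lower ones with the lowest, of the mRNAs averaging 20 counts or more whose groups did not overlap. Per difference they were up to 4 in each direction with the smallest p, or 2 where none passed. *DHH1*, *CCR4*, *MPT5*, *HO* and the extreme members of lists in the 3′ segment were added. *SAL1*, *SED1*, *HHF1*, *HHF2*, *SML1*, *MIP1*, *ESF1*, *PRP45*, *RCY1*, the mRNAs given for functional groups outside the extremes, and those of the added list were named after their values were seen. The members and lists were chosen with earlier results of these data known. Alternatives were other library sizes, filters, prior counts, thresholds, DESeq2 1.42.0, the replicate block, the UT IP as reference and each library left out.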

Additional observations from a re-analysis of the deposited data

Results flagged for a closer look

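A difference between segments in the ratio of the Dhh1 IP to the input passed the interaction test of edgeR at an FDR of 5% for 9 mRNAs in 14 comparisons. For the 3′ minus the 5′ segment the log2 differences were -4.71 for *BUD21*, -1.26 for *CCW12*, -2.15 for *SNT1*, -1.79 for *RPL41B*, -1.25 for *RPL8B*, -1.40 for *RPL41A* and -3.32 for *LCB5*. For the 3′ minus the middle segment they were -1.34 for *CCW12*, -4.32 for *BUD21*, -1.71 for *RPL41B*, -1.93 for *SNT1*, -1.77 for *MFA2*, -1.20 for *RPL8B* and 1.47 for *SCW11*. The middle and 5′ segments differed for 0 mRNAs.

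The mRNAs with the smallest p in the directions without a call were *NTH1*, neutral trehalase, and *PMA1*, the plasma membrane proton pump, for a higher ratio in the 3′ than in the 5′ segment (log2 2.12 and 0.56). For the middle minus the 5′ segment they were *GPX2* and *SRL1* upward (3.12 and 1.31) and *GFD2* and *HOS4* downward (-3.06 and -2.44). None of these 6 passed the test.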

How the results depend on the processing

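Counts of gained mRNAs (11, 14 and 5 in the 5′, middle and 3′ segments) depended on the scaling and on the spread used. TMM factors gave 0, 1 and 0, with 3 lower in the 5′ and 3 in the 3′ segment and median log2 ratios of 0.0065, 0.033 and 0.012. mRNA totals gave 0, 1 and 2 with medians of 0.13, 0.12 and 0.21, and totals without rRNA gave 1, 9 and 3 with 0 lower in the 3′ segment and medians of 0.34, 0.32 and 0.42. DESeq2 with its own size factors gave 1 and 2 in the 5′ and middle segments, with 3, 1 and 15 lower and medians of 0.0095, 0.033 and 0.025. DESeq2 with library totals gave 41, 46 and 51, with 0 lower in the 5′ and 3 in the 3′ segment. A mean of at least 20 counts gave 18 and 27 in the 5′ and middle segments and 0 lower in the 3′ segment, as did the filterByExpr filter for the last. Only the 5 libraries gave 2, 7 and 15, with 0 lower in the 5′ and 2 in the 3′ segment. A 4-fold limit left 6, 3 and 3, and an FDR of 5% gave 72, 87 and 76 with 4 lower in the 3′ segment. With the UT IP as the reference the counts were 552, 615 and 1308 and the medians 0.80, 0.79 and 1.15.

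For differences, TMM factors gave 11 mRNAs lower in the 3′ than in the 5′ segment and 16 lower than in the middle segment, with median differences of 0.0074, -0.0087 and 0.0051 (3′ minus 5′, 3′ minus middle, middle minus 5′), of which the last 2 changed sign. The mean of 20 counts gave 5 higher and 11 lower for the 3′ against the middle segment and medians of 0.13 and 0.14, no filter 3 and 10 with a median of 0.076 for the 3′ minus 5′, and filterByExpr a median of 0.10 for the latter. The 5 libraries alone gave 7 higher and 21 lower (3′ against 5′), 9 and 29 (3′ against middle) and 3 higher (middle against 5′). The UT IP as the reference gave 140 higher and 3 lower, 137 higher and 3 higher in the same order, with medians of 0.37 and 0.39. An FDR of 1% left 4 lower for the 3′ against the 5′ segment, and 0 higher and 3 lower for the 3′ against the middle segment. The median share of an mRNA's own counts in the middle segment differed by -1.01 percentage points. The cause of these changes was not tested.

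Leaving out 1 library at a time gave 0 to 10, 1 to 21 and 0 to 0 gained mRNAs, and 0 to 1, 0 to 0 and 0 to 2 lower. The medians were 0.41 to 0.56, 0.38 to 0.55 and 0.48 to 0.66. For the 3′ against the 5′ segment 0 to 2 were higher and 1 to 11 lower (median 0.077 to 0.11), for the 3′ against the middle segment 0 to 1 and 1 to 10 (0.10 to 0.12), and for the middle against the 5′ segment the median was -0.033 to -0.013. The shares differed by -0.95 to -0.07, -0.81 to -0.27 and 0.34 to 1.75 percentage points. With 1 input left, it was assumed to vary like the other groups.

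The replicate numbers are shared between groups, but deviations of same-numbered libraries correlated at -0.042 to 0.025, so they were not taken as pairs. With the replicate block 15, 14 and 3 mRNAs were gained and 0 were lower in the 3′ segment, and 0, 2 and 0 differences were higher and 6, 6 and 0 lower.

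Of 1615 values for single mRNAs under these alternatives, 1239 kept direction and side of the threshold, 287 lost and 66 gained significance, and 23 changed sign. With TMM factors *CCR4* had -0.12 and -0.058 in the 5′ and middle segments, as with the size factors of DESeq2 (-0.12 and -0.060). Over the fits without 1 library, the ratios in the 3′ segment ranged from -5.12 to 0.53 for *BUD21*, -3.17 to 0.50 for *RSM10* and -0.29 to 0.17 for *DHH1*, and that of *RCY1* in the 5′ segment from -3.77 to 0.25, each highest without input replicate 2. *DHH1* in the 3′ segment was also above 0 without Dhh1 IP replicate 2 (0.13). Against the UT IP the ratio was positive for *BUD21* (1.36), *CCW12* (0.21), *DHH1* (0.23), *MPT5* (0.30), *RPL41B* (0.62) and *RSM10* (1.49) in the 3′ segment and *DHH1* (0.37) and *RCY1* (0.48) in the 5′ segment. Against it the difference of the 3′ minus the 5′ segment was positive for *LCB5* (0.39), *RPL41A* (0.41), *RPL41B* (0.077) and *RPL8B* (0.038), that of the 3′ minus the middle segment for *RPL8B* (0.021) and that of the middle minus the 5′ segment for *HOS4* (0.085). At a median of 13 to 27 counts per segment and library, moderate changes of most mRNAs were not detectable.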

Other observations

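A list of 21 mRNAs known to be carried to the bud by She2 was added after the values had been seen, so it is given as values and without a test. Its median log2 ratios of the Dhh1 IP to the input were 0.51 (5′), 0.39 (middle) and 0.65 (3′ segment), against 0.49, 0.47 and 0.57 for all mRNAs. At 1% edgeR called 1 of 20 tested (5′), 2 of 20 (middle) and 0 of 21 (3′), against 0.261%, 0.328% and 0.118% of all mRNAs. These were *ASH1*, *SRL1* and *WSC2*, described above. At 5% there were 1, 3 and 1, against 1.71%, 2.04% and 1.79%, with *LCB1* in the middle (log2 1.06) and *MMR1* in the 3′ segment (1.51) added. Each of these mRNAs was called in 1 segment only at that limit.

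By input level, the median log2 ratio in the 5′ segment fell from 0.81 in the lowest of 5 equal groups to 0.28 in the highest. The input libraries enter both the grouping and the ratio.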
